A study of Mus musculus with 4 samples.

Results

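The osteoclast genes described here are 10 genes that MITF, the microphthalmia-associated transcription factor, is known to act on in bone-resorbing cells. They are Acp5, Ctsk, Dcstamp, Ocstamp, Mmp9, Oscar, Calcr, Tnfrsf11a, Nfatc1 and Clcn7, taken by name from knowledge of the field and not by any measured value. All of their listed exons were used, which came to 95 of the 234718 exons in the deposited table and to 10 of the 22823 genes that could be assigned with the GENCODE M21 annotation.

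The study switched on Mitf in mouse embryonic fibroblasts (MEFs) to ask how far a single lineage regulator can redirect other cells. RNA was sequenced from wild-type MEFs at passage 3, from Mitf knock-in MEFs at passage 5 grown without doxycycline, called Dox (-), from Mitf knock-in MEFs at passage 5 grown with doxycycline for 6 days, called Dox (+), and from primary mouse melanocytes (PMel), which were not analysed here. Both knock-in cultures carried the reverse tetracycline transactivator M2rtTA at the ROSA26 locus and a tetracycline-responsive transgene for M-Mitf, the melanocyte isoform, at the Col1a1 locus (Col1a1-TetO-Mitf). The knock-in fibroblasts came from chimeric mid-gestation embryos made by injecting engineered stem cells into host blastocysts, so such embryos also hold host cells, which an mCherry and a puromycin marker allowed to be removed. There was 1 library per condition, so no difference could be set against a spread between replicates and no p-value is given.

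Osteoclasts are large multinucleate cells of the monocyte and macrophage lineage that dissolve bone. The cytokine CSF1 keeps their precursors alive, and the ligand RANKL, made by stromal and bone-forming cells, binds the receptor RANK on them and brings up NFATC1, the transcription factor that commands the osteoclast programme. MITF and its relative TFE3 act in the same cells on genes for fusion, acid secretion and matrix digestion, and mice with certain mutant forms of MITF have dense, poorly resorbed bone. MITF binds DNA at E-boxes, short sites of the form CACGTG or CATGTG. The isoform induced in this study is the one of melanocytes, whereas osteoclasts use others.

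To show what E-boxes the members carry next to their starts, promoter windows of 250 bases that end at an annotated transcript start were taken from RefSeq (GRCm38.p6, the assembly of mm10). The table held 10 windows for 6 members, Acp5, Calcr, Clcn7, Ctsk, Oscar and Tnfrsf11a. Dcstamp, Ocstamp, Mmp9 and Nfatc1 had no entry. CACGTG or CATGTG, the latter read as CACATG on the other strand, was found in 4 of the 10 windows, against 17.6% of all 32851 windows in the table. CACGTG alone occurred in 6.02% of all windows, CATGTG in 12.3% and the longer TCATGTG, which contains CATGTG, in 3.25%. The windows below are written 5′ to 3′ on the strand of the gene. The first pair belongs to members called different below, and the next 4 are those with an E-box, which is in capitals.
Ctsk, chr3:95498960-95499209, plus strand: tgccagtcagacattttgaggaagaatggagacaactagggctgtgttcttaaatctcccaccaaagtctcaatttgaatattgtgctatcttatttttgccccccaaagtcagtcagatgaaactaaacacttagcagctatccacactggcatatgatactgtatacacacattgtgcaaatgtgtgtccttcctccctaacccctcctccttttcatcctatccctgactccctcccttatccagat
Tnfrsf11a, chr1:105780473-105780722, plus strand: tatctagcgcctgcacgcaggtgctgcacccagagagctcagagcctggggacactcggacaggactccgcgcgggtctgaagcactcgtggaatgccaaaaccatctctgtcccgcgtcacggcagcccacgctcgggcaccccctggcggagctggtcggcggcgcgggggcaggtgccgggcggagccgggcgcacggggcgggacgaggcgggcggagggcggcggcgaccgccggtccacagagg
Clcn7, chr17:25133141-25133390, plus strand: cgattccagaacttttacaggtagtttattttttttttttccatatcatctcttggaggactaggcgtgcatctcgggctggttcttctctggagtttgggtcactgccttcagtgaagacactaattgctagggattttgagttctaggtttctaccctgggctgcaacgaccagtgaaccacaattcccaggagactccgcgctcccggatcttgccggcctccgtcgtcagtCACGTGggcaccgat
Clcn7, chr17:25136381-25136630, plus strand: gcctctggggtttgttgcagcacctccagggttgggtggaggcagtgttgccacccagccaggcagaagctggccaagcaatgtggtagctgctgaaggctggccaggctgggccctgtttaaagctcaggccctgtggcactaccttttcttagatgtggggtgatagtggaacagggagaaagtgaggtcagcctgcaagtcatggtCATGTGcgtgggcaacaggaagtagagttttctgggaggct
Acp5, chr9:22130599-22130848, minus strand: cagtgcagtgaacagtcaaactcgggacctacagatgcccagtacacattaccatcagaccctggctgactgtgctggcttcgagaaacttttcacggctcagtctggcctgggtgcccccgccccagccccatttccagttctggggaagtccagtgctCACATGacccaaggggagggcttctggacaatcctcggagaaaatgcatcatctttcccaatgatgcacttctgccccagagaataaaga
Oscar, chr7:3616158-3616407, minus strand: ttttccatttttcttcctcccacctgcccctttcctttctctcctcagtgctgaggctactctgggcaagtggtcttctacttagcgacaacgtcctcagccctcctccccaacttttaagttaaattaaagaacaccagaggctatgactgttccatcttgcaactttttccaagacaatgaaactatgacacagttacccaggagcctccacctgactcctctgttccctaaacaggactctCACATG
The Ctsk and Tnfrsf11a windows held neither set of letters. Counted from the first base of the motif to the start, the first Clcn7 window had CACGTG 15 bases before the start, and the window of the second, downstream start had CATGTG 41 bases before it, within TCATGTG. On the same count CACATG began 90 bases before the start in Acp5, within TCATGTG read on the other strand, and 6 bases before it in Oscar. A match describes these letters only and no binding was measured at these sites.

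Values were RPKM, the reads on an exon scaled by exon length in kilobases and by the aligned reads of the library. The level of a gene is that of its highest exon in each library. A gene was called different when its level exceeded 10 RPKM in either library of a pair and differed more than 4-fold. RPKM values could be turned back into whole reads with divisors of 45000000 aligned reads for the library labelled MEF and for Dox (-) and 44000000 for Dox (+). Reads are given with 95% exact intervals that cover counting error only, since copies made by PCR are not independent molecules. An exon of 150 bases needs 0.444 RPKM in MEF and Dox (-) and 0.455 RPKM in Dox (+) to reach 3 reads, the floor used here. Because the study's own gene table prints other values under MEF than this column holds, the column is called the library labelled MEF. Mitf itself stood at 1.52 RPKM in the library labelled MEF, 30.8 in Dox (-) and 1544 in Dox (+), 50.1-fold higher in Dox (+) than in Dox (-), in the direction the labels give.

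The Dox (-) library also carried a strong macrophage signal. Of 16 macrophage markers, 15 were called lower in Dox (+) than in Dox (-), and against the library labelled MEF 15 were called higher in Dox (-), in each case the exception being Cx3cr1, whose highest exon is 12 bases long. In the library labelled MEF the defining markers Fcgr1 and Ptprc were at 0 and 0.0655 RPKM. Other markers were present there, with Lyz2 at 27.8, Cd68 at 12.1 and Csf1r at 8.10 RPKM. The summed level of the 16 markers was 239 RPKM in the library labelled MEF, 18817 in Dox (-) and 957 in Dox (+). Without Cx3cr1 it was 61.4, 18623 and 641. Of 8 fibroblast markers 4 were called lower in Dox (+) than in Dox (-), with summed levels of 18350, 45433 and 11943 RPKM. The 4 were Lum and the collagen genes Col1a1, Col1a2 and Col3a1, which had the highest levels of the list in Dox (-). Thy1 alone was higher in Dox (+), at 3608 RPKM against 2014 in Dox (-). Against the library labelled MEF 3 were called higher in Dox (+), Thy1, Dcn and Lum, and none lower. Cd3g and Cd79a, markers of T and B cells, stayed below 10 RPKM in all 3 libraries. In bulk RNA, fewer cells of a type and less RNA per cell cannot be told apart. Osteoclasts share some of these macrophage genes, so Ctsk, Mmp9 and Tnfrsf11a below are set beside them. The part of such cells in any member's value was not tested.

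**Figure D1:**
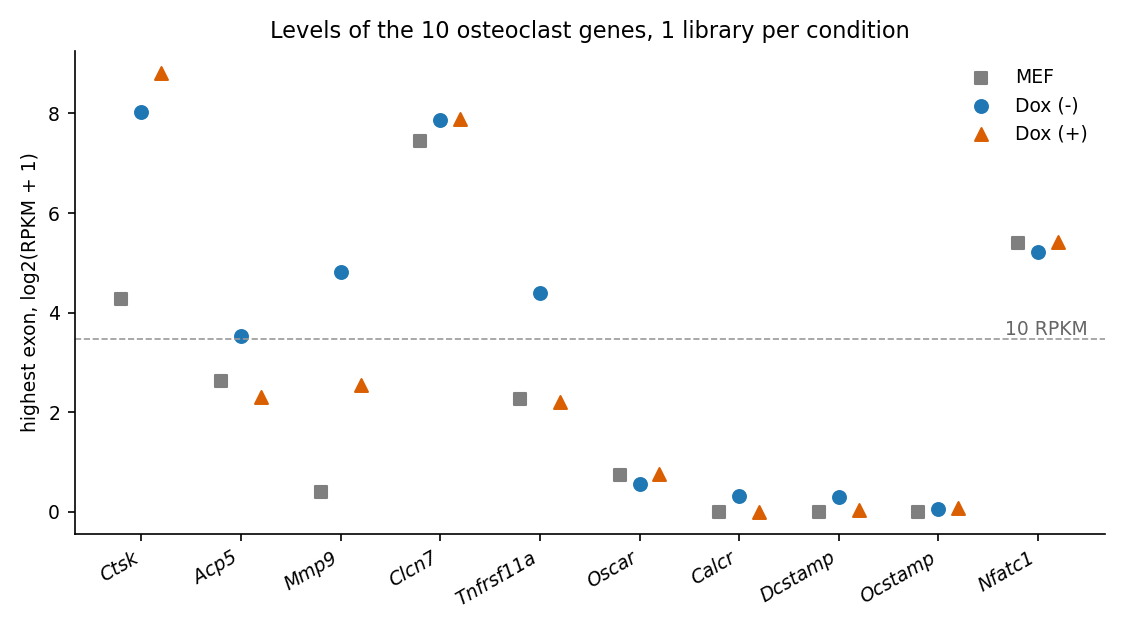
Level of each of the 10 osteoclast genes in the 3 libraries, as log2(RPKM + 1) of the highest exon in that library, with 1 point per library and a dashed line at 10 RPKM. Ctsk and Clcn7 were the highest members in both knock-in libraries, the Clcn7 points standing on an exon identifier that did not return whole reads. Mmp9 and Tnfrsf11a stood above the line in Dox (-) alone, as did Acp5 by a narrow margin, at 10.6 RPKM. Oscar, Calcr, Dcstamp and Ocstamp lay near 0 throughout.

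Between Dox (+) and Dox (-), 6 of the 10 members exceeded 10 RPKM in one or both. None of the members was called higher in Dox (+), where 1.64% of the 13300 genes tested were, and 2 members, Mmp9 and Tnfrsf11a, were called lower, where 5.41% of all genes were. Neither call stood when reads were summed over all exon positions, which put Mmp9 at 8.67 RPKM and Tnfrsf11a at 5.57 RPKM in Dox (-), under the limit of 10 RPKM. The median log2 fold change of all 10 members was -0.12, beside 0.23 over all genes tested. These sets are unlike, since the members under 10 RPKM, whose values the pseudocount of 1 pulls towards 0, are in the first only. The 6 members above 10 RPKM had -2.28 (Mmp9), -2.20 (Tnfrsf11a), -1.24 (Acp5), 0.04 (Clcn7), 0.21 (Nfatc1) and 0.80 (Ctsk). Rescaling each library by its median ratio over expressed genes moved the log2 ratios by 0.28 and left the same 2 members called on their highest exon. Under it the highest-exon ratio of Ctsk was 1.43 and those of Nfatc1, Clcn7 and Ocstamp turned from above 1 to 0.951, 0.843 and 0.993.

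The matrix-digesting enzymes differed from one another. Cathepsin K (Ctsk, chr3:95499256-95509362 on the plus strand of mm10), the cysteine protease that cuts bone collagen and that fibroblasts also make, had levels of 18.2 RPKM in the library labelled MEF, 258.7 in Dox (-) and 450.5 in Dox (+). It was the most abundant member in both knock-in libraries, above 88.8% of all genes in Dox (-) and 92.0% in Dox (+), but only 53.9% in the library labelled MEF. Over the 7 Ctsk exons that returned whole reads, 699, 10726 and 18349 reads were counted. The ratio of Dox (+) to Dox (-) was 1.75 (95% interval 1.71 to 1.79), under the 4-fold limit. All 8 listed Ctsk exons were higher in Dox (+), by 1.54- to 2.001-fold, so the difference ran along the whole transcript. The macrophage markers went the opposite way between these libraries.

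Against the library labelled MEF, Ctsk was 15.3-fold higher in Dox (-) (14.2 to 16.6) and 26.8-fold higher in Dox (+) (24.9 to 29.0) on summed reads. The larger ratio thus lay between the library labelled MEF and the knock-in cells without Dox. By their labels these libraries differ in genotype and passage as well as in Mitf, which cannot be told apart, and whether the column labelled MEF holds the wild-type library was not tested.

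Matrix metalloproteinase 9 (Mmp9, chr2:164940780-164955850, plus strand), the gelatinase that osteoclasts and other myeloid cells secrete, stood at 0.317 RPKM in the library labelled MEF, 27.1 in Dox (-) and 4.81 in Dox (+). It was high in Dox (-) alone. Its exons held 23, 1234 and 226 reads, which put Dox (+) 5.34-fold below Dox (-) (4.63 to 6.18). All 15 listed exons were lower in Dox (+), with ratios from 0.107 to 0.418 and every interval below 1. Mmp9 nevertheless remained above the library labelled MEF, by 10.0-fold in Dox (+) (6.53 to 16.2) and 53.7-fold in Dox (-) (35.6 to 85.0). The order of the 3 libraries, Dox (-) above Dox (+) above the library labelled MEF, was also that of the summed macrophage markers.

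Tartrate-resistant acid phosphatase (Acp5, chr9:22126727-22135711, minus strand), the enzyme whose staining is used to recognise osteoclasts, was low, at 5.21, 10.6 and 3.91 RPKM in the library labelled MEF, Dox (-) and Dox (+). Its level was 2.71-fold lower in Dox (+) than in Dox (-), short of the 4-fold limit. That ratio rested on listed exons 3 and 4, where reads went from 78 to 27 and from 61 to 22, at ratios of 0.354 (0.220 to 0.555) and 0.369 (0.216 to 0.609). In exons 5 and 6, with 44 and 36 and with 55 and 48 reads, both intervals included 1. Exon 6 overlaps another gene, 6530413G14Rik, on the opposite strand, and the library kit does not mark strand, so reads of the pair cannot be told apart there. Summed over exons, 184, 242 and 138 reads gave a ratio of 0.583 (0.470 to 0.722).

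The chloride-proton exchanger CLC-7 (Clcn7, chr17:25133391-25162104, plus strand) charges lysosomes and the acid compartment beneath the osteoclast and is also made in most other cells. Its highest listed value was 172.8 RPKM in the library labelled MEF, 231.5 in Dox (-) and 237.5 in Dox (+). These values stood on an exon identifier that did not return whole reads. Another identifier at the same position did, and had lower values of 61.5, 87.7 and 90.6 RPKM. The 2 knock-in libraries were close to each other. Over its whole-read exons 6853, 10776 and 11065 reads were counted, a ratio of 1.05 between Dox (+) and Dox (-) (1.02 to 1.08). Of 31 exon positions 20 were higher in Dox (+) and 11 were lower. Against the library labelled MEF all 31 positions were higher in both knock-in libraries, by 1.57-fold in Dox (-) (1.53 to 1.62) and 1.65-fold in Dox (+) (1.60 to 1.70) on summed reads.

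One Clcn7 exon, picked out after the values were seen, stood apart from the rest of the gene. The second listed exon (chr17:25136622-25136763) is the first exon of the transcript from the downstream start, whose promoter window is the second Clcn7 window printed above. That window holds TCATGTG, as does the printed Acp5 window, whose neighbouring Acp5 exon held 4 reads in Dox (-) and 5 in Dox (+). Any link between these letters and the reads was not tested. The Clcn7 exon held 6 reads in the library labelled MEF, 29 in Dox (-) and 68 in Dox (+). The ratio of Dox (+) to Dox (-) was 2.40 (1.53 to 3.84), the highest of the 31 positions, whereas the first exon of the upstream start, with 32, 100 and 125 reads, had a ratio of 1.28 (0.9749 to 1.68). Both first exons were low, at 12.7 and 10.9 RPKM in Dox (+), beside 32.6 to 187.3 RPKM over the other exons that returned whole reads.

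Of the receptors, only RANK was measured well. Its gene (Tnfrsf11a, chr1:105780718-105847981, plus strand), which encodes the receptor for RANKL, had highest-exon levels of 3.77 RPKM in the library labelled MEF, 20.1 in Dox (-) and 3.60 in Dox (+). As with Mmp9, Dox (-) stood alone above the other libraries. Reads summed over 9 exons were 243, 1233 and 158, so that Dox (+) was 7.63-fold below Dox (-) (6.46 to 9.06) and at 0.665 of the library labelled MEF (0.541 to 0.816). The latter ratio rested on the long last exon, which took 187 of the 243 reads in the library labelled MEF and 59 in Dox (+), at a ratio of 0.323. Of the 9 exons 7 had a ratio of Dox (+) to the library labelled MEF above 1, with a median exon ratio of 1.91, 3 intervals above 1 and 1 below. All 9 exons were lower in Dox (+) than in Dox (-), 7 of them with intervals below 1. The macrophage markers, apart from Cx3cr1, were also lower in Dox (+) than in Dox (-).

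The difference in Tnfrsf11a was uneven along the gene, a feature noticed after the values were seen. Over exons 1 to 3 as listed, 71 reads of Dox (-) stood against 41 of Dox (+), a ratio of 0.591 (0.392 to 0.880). Exons 4 to 9 had 1162 and 117, a ratio of 0.103 (0.0844 to 0.1246). The first 3 exons thus took 5.76% of Tnfrsf11a reads in Dox (-) (Wilson interval 4.59 to 7.20) and 25.9% in Dox (+) (19.7 to 33.3), while in the library labelled MEF they took 14 of 243 reads, also 5.76% (3.46 to 9.44).

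The osteoclast-associated receptor (Oscar, chr7:3609813-3616157, minus strand), which binds collagen and supports NFATC1 induction, was at 0.673, 0.473 and 0.689 RPKM. The first and last of these came from 1 read on an exon of 33 bases. Summed over exons, 10, 30 and 6 reads were counted, and on that measure Dox (+) was lower than Dox (-), at a ratio of 0.205 (0.0696 to 0.499), although the highest-exon ratio was 1.46. Calcr, the calcitonin receptor that marks mature osteoclasts, was represented by 1 listed exon of 187 bases with 0, 2 and 0 reads. All 3 Calcr values were under the floor, and no ratio is given.

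The fusion genes were at the limit of detection. Dcstamp and Ocstamp encode membrane proteins that osteoclast precursors need in order to fuse. Dcstamp had 0 reads in the library labelled MEF, 11 in Dox (-) and 1 in Dox (+) over its 3 exons, a ratio of 0.0930 between Dox (+) and Dox (-) with a wide interval (0.00216 to 0.640). Ocstamp had 0, 4 and 6 reads over 2 exons, and its interval of 0.364 to 7.39 included 1. Neither gene rose above 0.220 RPKM on any exon. Dcstamp, Ocstamp, Calcr and Oscar thus stayed at or below 0.689 RPKM in every library.

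**Figure D2:**
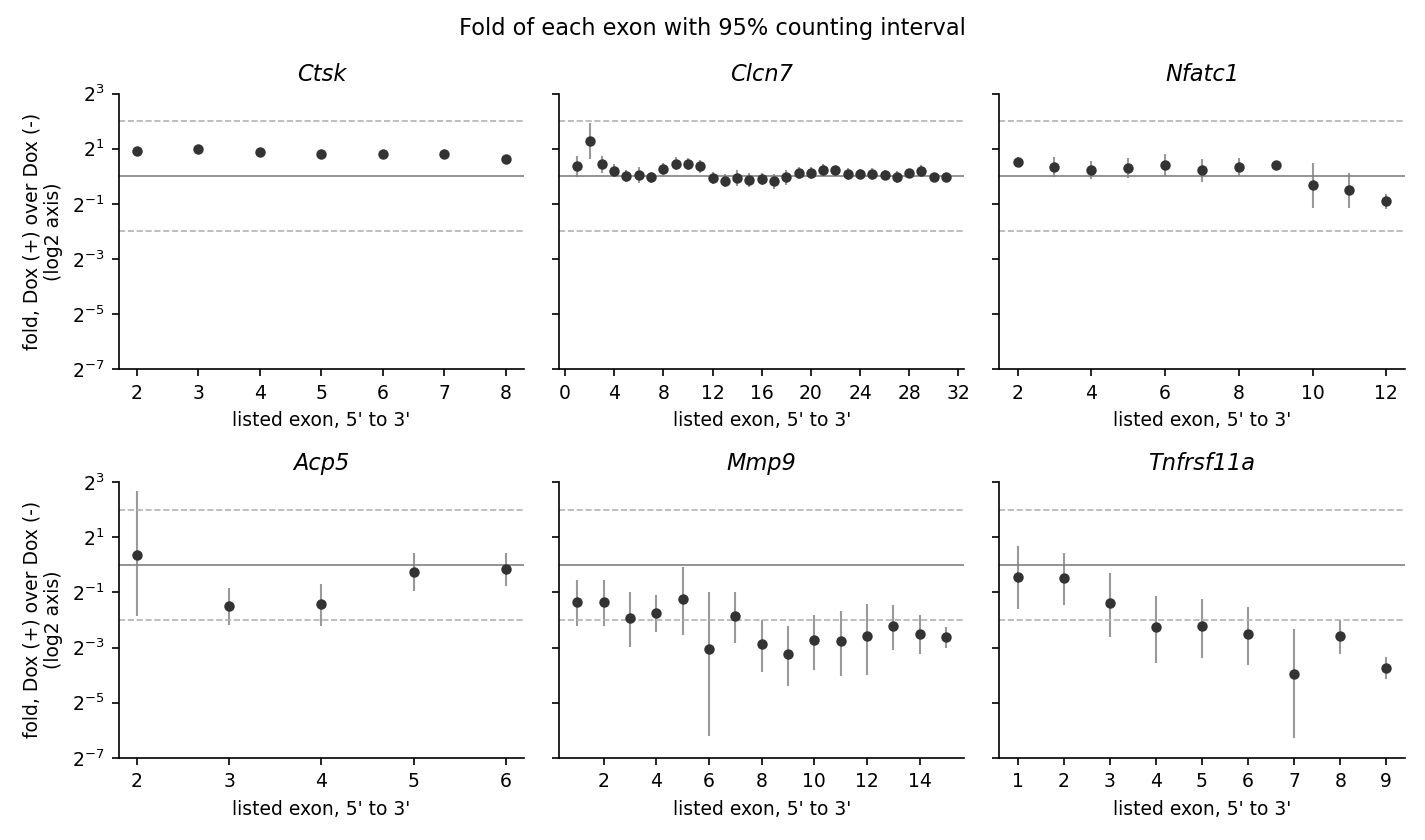
Ratio of Dox (+) to Dox (-) for each exon with whole reads of 6 osteoclast genes, on a log2 axis, with 95% exact intervals for counting error, a solid line at 1 and dashed lines at 4-fold. Ctsk exons lay above 1 from end to end, Mmp9 exons lay below 1, and Tnfrsf11a exons were lower towards the 3′ end.

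The transcription factor gene Nfatc1 (chr18:80606205-80713071, minus strand), which RANKL signalling induces in osteoclasts, was present at a middling level in every library. Its highest exon had 41.3 RPKM in the library labelled MEF, 36.1 in Dox (-) and 41.8 in Dox (+), above 64.1%, 59.4% and 61.6% of all genes. The 3 levels were close to one another. Summed reads were 2650, 2196 and 2566, so Dox (+) was 1.20-fold above Dox (-) (1.13 to 1.27) and at 0.990 of the library labelled MEF (0.938 to 1.05). This member did not share the pattern of Mmp9 and Tnfrsf11a.

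Within Nfatc1 the 3′ exons were used unequally, which was also noticed after the values were seen. The gene has a short form, ending in a long exon listed here as the ninth, and longer forms that run on to the twelfth. The last exon of the long form held 642 reads in the library labelled MEF, 331 in Dox (-) and 172 in Dox (+), whereas the last exon of the short form held 1068, 824 and 1082. The share of the long form among these reads was 37.5% in the library labelled MEF (35.3 to 39.9), 28.7% in Dox (-) (26.1 to 31.3) and 13.7% in Dox (+) (11.9 to 15.7). Between Dox (+) and Dox (-) the long-form exon was at 0.531 (0.439 to 0.641) and the short-form exon at 1.34 (1.23 to 1.47). The short-form exon contains the 133 bases of an exon that the long form also uses, so some of its reads come from the long form.

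**Figure D3:**
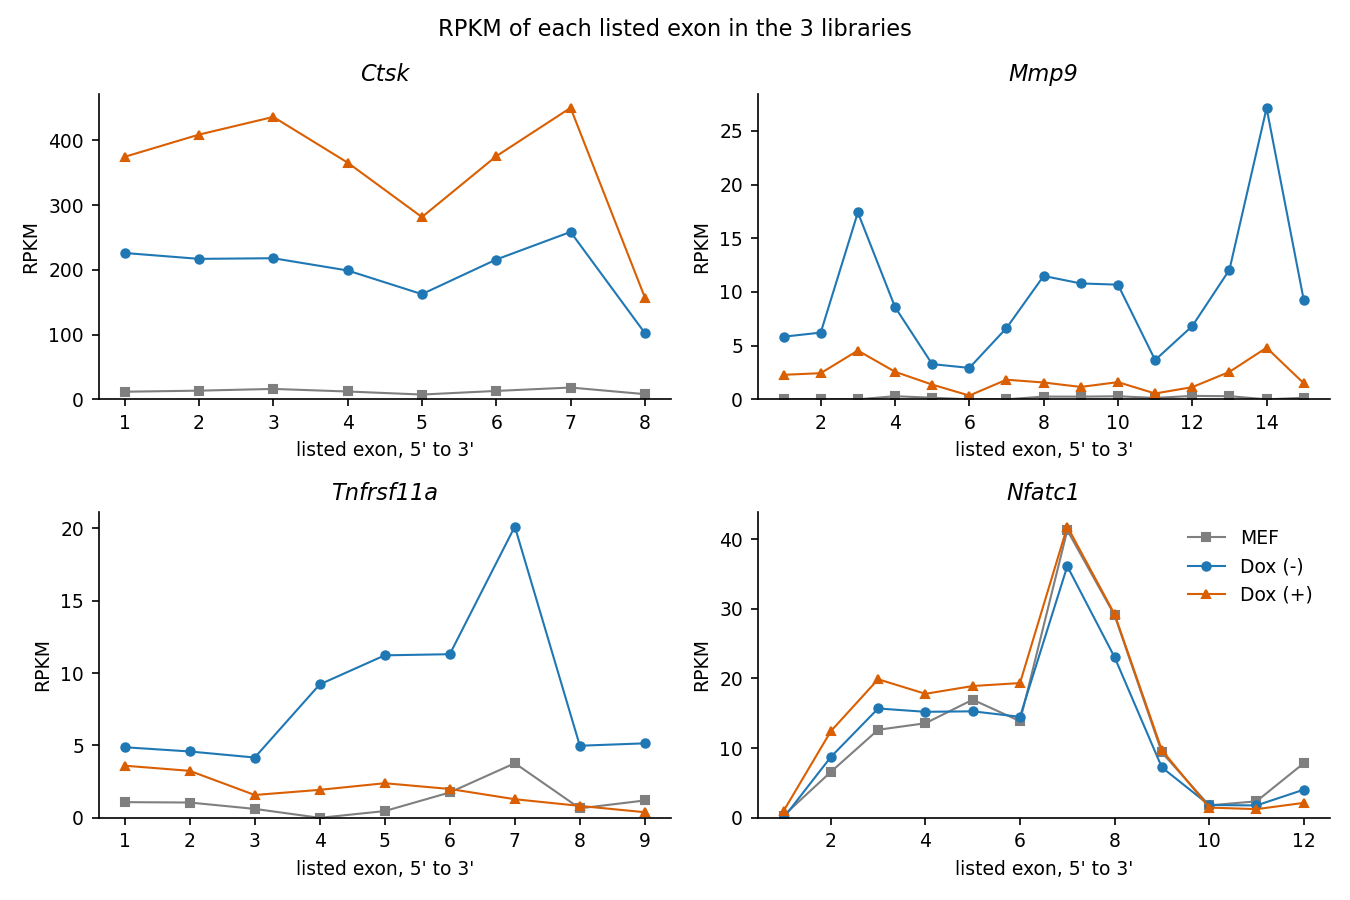
RPKM of each listed exon of Ctsk, Mmp9, Tnfrsf11a and Nfatc1 in the 3 libraries, 1 line per library, exons in order from 5′ to 3′. Dox (+) was highest along Ctsk, Dox (-) was highest along Mmp9 and Tnfrsf11a, and the lines of Nfatc1 crossed at the last exons, where the library labelled MEF was highest at 7.83 RPKM and Dox (+) lowest at 2.15 RPKM.

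Compared with the library labelled MEF, 3 members were called higher in Dox (-), Ctsk, Mmp9 and Tnfrsf11a, of 6 above the threshold, where 8.26% of the 13227 genes tested were called higher. None was called lower, where 1.21% of all genes were. In Dox (+) against the library labelled MEF, 1 member, Ctsk, was called higher of 3 above the threshold, where 6.56% of 12935 genes were, and none was called lower, where 3.4% were. The median log2 fold change over all 10 members was 0.36 in the first comparison and 0.02 in the second, beside 0.01 and 0.27 over all genes tested. These sets are unlike, since every gene tested is above the threshold and some members are not. The 6 members above it in the first comparison had 4.42 (Mmp9), 3.75 (Ctsk), 2.15 (Tnfrsf11a), 0.90 (Acp5), 0.42 (Clcn7) and -0.19 (Nfatc1). The 3 in the second had 4.55 (Ctsk), 0.46 (Clcn7) and 0.02 (Nfatc1). These comparisons share libraries with each other and with that between Dox (+) and Dox (-), so they are not separate evidence.

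The rest of the osteoclast pathway was read from lists of signals, transcription factors and resorption genes. Among 11 signals and their receptors, 9 were above the threshold between Dox (+) and Dox (-), none was called higher and 4 were called lower. The median log2 fold change over all 11 was -1.04. The ligand RANKL (Tnfsf11) was measured at 1.49 RPKM in the library labelled MEF, 20.8 in Dox (-) and 38.5 in Dox (+). Its highest exon of 46 bases held 43 reads of Dox (-) and 78 of Dox (+), a ratio of 1.86 (1.26 to 2.76). Osteoprotegerin (Tnfrsf11b), the decoy receptor that soaks up RANKL, ran the other way, at 518 RPKM in the library labelled MEF, 135 in Dox (-) and 65.3 in Dox (+). Dox (+) was thus the library with the highest ligand and the lowest decoy, and its RANK was below that of Dox (-).

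CSF1 ligand and receptor also parted. Csf1 stood at 260 RPKM in the library labelled MEF, 896 in Dox (-) and 952 in Dox (+), and the alternative ligand Il34 at 23.6, 18.5 and 16.3. The receptor Csf1r was at 8.10, 342 and 11.01 RPKM and was called lower in Dox (+) than in Dox (-). Tyrobp, Fcer1g and Trem2, adaptors and a receptor on the same list, were the other 3 called lower, at log2 fold changes of -4.60, -4.85 and -4.44. All 4 are expressed in macrophages, and 3 of them also stand in the macrophage list. Traf6, the adaptor that RANK engages, was at 16.1, 28.1 and 42.3 RPKM, and Siglec15 was at 0 in all 3 libraries. Sirpb1a, a membrane protein of myeloid cells, was at 9.12 RPKM in Dox (-) and at 0 in the others.

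Of 14 osteoclast transcription factors, 13 were above the threshold and 2 were called higher in Dox (+), with a median of 0.04 over all 14. Those called higher were Mitf itself and Fosl1, an AP-1 subunit, at 17.5, 23.5 and 111 RPKM. Among those called lower were the MITF relative Tfec, the myeloid regulator Spi1, and Irf8, which restrains osteoclast formation. Spi1 went from 167 RPKM in Dox (-) to 4.84 in Dox (+), and Irf8 from 37.5 to 1.48. These 3 are typical of myeloid cells, and the ubiquitous relative Tfe3 stood at 293 RPKM in Dox (-) and 322 in Dox (+).

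The resorption machinery, 16 genes for acid secretion, attachment and digestion, had 15 genes above the threshold. The median over all 16 was 0.17. Only Atp6v0d2, an osteoclast-enriched subunit of the vacuolar proton pump, was called different. It stood at 3.26 RPKM in the library labelled MEF, 4.44 in Dox (-) and 551 in Dox (+), and its highest exon, of 25 bases, held 5 reads of Dox (-) and 606 of Dox (+), a ratio of 124 (52.8 to 383). The integrin subunit Itgb3, by which osteoclasts attach to bone, was at 21.98, 61.3 and 148 RPKM, a ratio of 2.41 between Dox (+) and Dox (-) (2.09 to 2.80), and carbonic anhydrase 2 (Car2) was at 10.9, 6.72 and 16.6 RPKM. Tcirg1, the pump subunit found at the resorbing membrane, was at 82.5, 182 and 93.4 RPKM, highest in Dox (-). Itgb3 thus shared the order of Ctsk across the libraries. Atp6v0d2 did so in RPKM, but its highest exon held 1 read in the library labelled MEF and 5 in Dox (-), too few to order these libraries. Tcirg1 was highest in Dox (-) like Mmp9, but its ratio of Dox (+) to the library labelled MEF, 1.13 (0.974 to 1.31), had an interval that included 1.

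**Figure D4:**
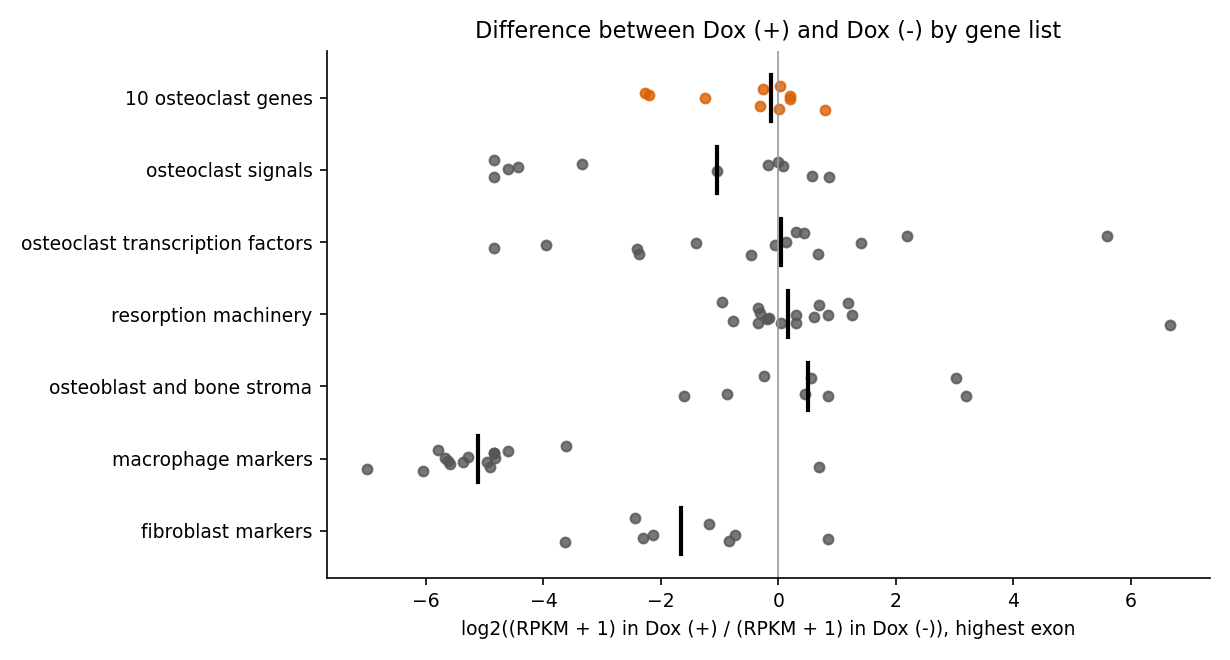
Log2 fold change of (RPKM + 1), Dox (+) over Dox (-), for the 10 osteoclast genes and for 6 gene lists, 1 point per gene and a bar at each median. The members spread from -2.28 for Mmp9 to 0.80 for Ctsk around a median of -0.12, and the macrophage markers lay at a median of -5.11.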

How the data were processed

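RNA was sequenced with 1 poly(A) library per condition. Per the submitters' notes and the methods, the authors used bcl2fastq 2.17.1.14, a TruSeq v2 kit, TopHat2 2.0.10 on mm10, and bedtools to count reads on Ensembl exons. The authors deposited RPKM, counts scaled by exon length and aligned reads. Short exons are inflated because bedtools counts each overlapping read, and a read across a junction can count in both exons. The choice of exons in the table is not given in the sources used here. 

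Columns were assigned by name. The number of columns matching no label, and left unused, was 1, so PMel was not analysed here. Exons were assigned with GENCODE M21, and 6586 had no match. Reads were recovered with the smallest whole divisor, from 10 to 80 on the RPKM scale, that made most values up to 200 reads whole within 0.02. Per library 96.9% to 97.2% of values came out whole, as did 92 of 95 member exons. Summed reads used non-overlapping whole-read exons. The cut-offs of the call are those the study applied to single exons between MEFs and melanocytes, used here within each pair on the highest exon, the study's measure of gene level, with no pseudocount, and log2 fold changes used a pseudocount of 1. Ratios have exact conditional binomial and shares Wilson intervals, at 95%. No test was made across libraries. Alternatives changed thresholds, pseudocount, exon choice and scaling. Whole-read exons alone, the library labelled MEF as reference and the macrophage sum without Cx3cr1 were chosen after seeing the data. Depth recovery and calling were tested on simulated data.

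The members and gene lists were chosen with earlier results of these data known. Genes named are the 10 members, Mitf, the RANKL, osteoprotegerin and CSF1 signals, the pathway genes called between Dox (+) and Dox (-), and defining markers. Other pathway genes and single exons were named after their values were seen. Some list genes are not reported here. Promoters came from RefSeq, GRCm38.p6. Python 3.11.15, NumPy 2.4.6, pandas 2.3.3, SciPy 1.17.1 and matplotlib 3.10.9 were used.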

Additional observations from a re-analysis of the deposited data

How the results depend on the processing

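No paired analysis was possible because there was 1 library per condition, and for the same reason no library could be left out. The alternatives planned with PMel were not run. Between Dox (+) and Dox (-), 2 members were called as reported, Mmp9 and Tnfrsf11a, and both were also called with a threshold of 1 RPKM, with a pseudocount in the call, with 1 exon per gene, after rescaling and with whole-read exons alone. At 2-fold 3 were called, with Acp5 added. With no threshold 4 members were called lower, and with reads summed over exon positions 0 were, since the levels of Mmp9 and Tnfrsf11a in Dox (-) then came to 8.67 and 5.57 RPKM, under the threshold. Over all genes the 218 higher and 719 lower became 478 and 1447 at 1 RPKM, 1287 and 3051 with no threshold, 1438 and 1470 at 2-fold, 118 and 451 with summed reads, and 155 and 873 after rescaling. In Dox (+) against the library labelled MEF, 2 members were called at 1 RPKM and 4 with no threshold in place of 1. In Dox (-) against the library labelled MEF, 4 were called at 2-fold, 6 with no threshold and 1 with summed reads in place of 3. The median log2 fold change of the members, -0.12, was -0.68 with a pseudocount of 0.1, -0.0266 with one of 5, -0.23 with summed reads, -0.26 after rescaling and 0.0246 with the library labelled MEF as reference. Apart from the construction of each alternative, the cause was not tested. Under 6 alternatives, the log2 fold changes ranged from -2.52 to -1.71 for Mmp9, from -3.21 to -1.55 for Tnfrsf11a, from -1.48 to -0.56 for Acp5 and from 0.51 to 0.80 for Ctsk. For Oscar, Nfatc1, Clcn7 and Ocstamp 1 of the 6 turned the sign. Dcstamp, Ocstamp, Oscar and Calcr had at most 30 summed reads in any library. Of their annotated exons, 3 of 12, 2 of 3, 6 of 10 and 1 of 22 were listed. Whether depth, the listed exons or low expression limited these counts was not tested.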

Other observations

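Genes of bone-forming cells, read as a list of 8, had 4 genes above the threshold between Dox (+) and Dox (-). Of these 2 were called higher in Dox (+) and none lower. The median log2 fold change over all 8 was 0.50. The osteocyte matrix gene Dmp1 stood at 1.48 RPKM in the library labelled MEF, 6.73 in Dox (-) and 69.6 in Dox (+), with 2, 10 and 101 reads on its highest exon, a ratio of 10.3 between Dox (+) and Dox (-) (95% interval 5.39 to 22.2). Bglap, which encodes osteocalcin, was at 0.673, 1.15 and 16.5 RPKM, and on its 33-base highest exon Dox (+) was at least 8.18-fold higher against a floor of 3 reads in Dox (-). Bglap has near-identical neighbouring copies, and how the counting divided reads among them is uncertain. Spp1, the osteopontin gene that macrophages, osteoclasts and fibroblasts also express, held 14484 reads in the library labelled MEF, 22693 in Dox (-) and 39572 in Dox (+) on an exon of 91 bases, a ratio of 1.78 (1.75 to 1.81). Sp7, the osteoblast transcription factor, stayed low at 0.794 RPKM in Dox (-) and 1.62 in Dox (+), and Phex was at 4.04 and 0.659.

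Of 9 melanocyte markers 3 were above the threshold between Dox (+) and Dox (-) and 2, Tyrp1 and Mlana, were called higher in Dox (+), at 110 and 133 RPKM there. Of 3 endothelial markers 1, Kdr, was above the threshold, at 10.7 RPKM in Dox (-) and 3.54 in Dox (+), and it was not called between them.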
